A study of Sus scrofa with 6 samples.

Results

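EMX2, OTX1, DBX1, SIM1 and HOXA2, 5 of the 30477 genes counted in pig midbrain-like organoids, were taken by gene symbol as transcription factor genes that mark brain positions other than the ventral midbrain. These genes and the lists of other position genes were chosen with earlier results of these data known. Counts of them beside shares of all genes are therefore descriptions. Single-cell RNA sequencing was performed on 6 libraries, A and B on each of D11, D28 and D45 of organoid culture, all from the porcine embryonic stem cell line IVF_1_ pESC_FIW. The embryoid bodies had been patterned with SB431542 and Noggin, which block activin/TGF-β and BMP signaling, with SHH-C24II, a Sonic hedgehog protein, and with CHIR99021, a GSK3 inhibitor. FGF8 was added later, and BDNF and ascorbic acid after that, before D11. After D11 the organoids were embedded in Matrigel and kept on a shaker, with BDNF, ascorbic acid, GDNF, db-cAMP and the gamma-secretase inhibitor DAPT and without FGF8. All groups therefore share 1 cell line and 1 protocol, but D11 differs from D28 and D45 in embedding and medium as well as in time, and these cannot be told apart. The questions asked were in which cells and on which days these genes were detected, and whether they were found together with FOXA2, WNT8B, SLC17A6 or STMN2.

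The neural tube acquires its head-to-tail order under WNT, FGF and retinoic acid gradients, and each segment is marked by its own homeobox and bHLH-PAS genes. EMX2 is used in the dorsal telencephalon and in parts of the diencephalon, OTX1 in the forebrain and midbrain, and DBX1 in progenitors of the hypothalamus, the pallial borders and the intermediate neural tube. SIM1 is required for paraventricular neurons of the hypothalamus and is also used by V3 interneurons of the cord, and HOXA2 patterns the hindbrain rhombomeres. Of the partners, FOXA2 defines the floor plate and its dopaminergic progeny, WNT8B is a WNT ligand of the forebrain midline and hypothalamus, SLC17A6 encodes the vesicular glutamate transporter VGLUT2 of excitatory neurons, and STMN2 is a general marker of neurons.

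After filtering, 102940 of 104820 barcodes were kept, 13870 to 21553 per library, with 106805311 to 180034791 unique molecular identifiers (UMIs, counted mRNA molecules) per library. The median depth was 10757 and 8845 UMIs per cell in D11 A and B, 5505 and 8130 in D28 A and B, and 2300.5 and 4341 in D45 A and B. Any pair of libraries shared between 54 and 111 barcodes, at most 0.637% of the smaller library. The labels call the cells midbrain dopaminergic neurons. A cluster holding the dopaminergic markers TH, DDC, SLC18A2 and SLC6A3 had 1729 of the kept cells, none of them from D11. D28 A stood apart from D28 B: a shallow cluster, with a median of 663 UMIs, held 3488 cells of A and 298 of B.

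In RefSeq's annotation of Sscrofa11.1, the build named in the submitters' notes, EMX2 (ENSSSCG00000032558) lies on chromosome 14 at 127649675 to 127656972, plus strand, OTX1 (ENSSSCG00000037564) on chromosome 3 at 78895142 to 78903045, minus strand, and DBX1 (ENSSSCG00000013350) on chromosome 2 at 39229392 to 39234304, plus strand. SIM1 (ENSSSCG00000004357) lies on chromosome 1 at 67213685 to 67294455, minus strand, and HOXA2 (ENSSSCG00000016706) on chromosome 18 at 45470079 to 45473345, plus strand. The 300 bases before the annotated start are printed for EMX2, OTX1 and DBX1, the 3 genes that were found together in the same cells. They are written 5′ to 3′ on the gene's strand, and capitals mark matches to 4 motifs searched on both strands: TAATCC (the OTX core), CTTTGNT (TCF/LEF), TGGGTGGTC (GLI) and TAATTA (a homeodomain core).
EMX2, chr14:127649375-127649674, plus strand: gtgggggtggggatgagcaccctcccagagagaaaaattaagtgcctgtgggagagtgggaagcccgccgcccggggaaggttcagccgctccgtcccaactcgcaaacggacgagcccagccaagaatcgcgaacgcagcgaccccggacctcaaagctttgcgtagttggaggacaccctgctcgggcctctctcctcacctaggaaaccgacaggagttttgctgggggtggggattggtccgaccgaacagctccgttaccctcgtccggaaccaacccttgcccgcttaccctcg
OTX1, chr3:78903046-78903345, minus strand: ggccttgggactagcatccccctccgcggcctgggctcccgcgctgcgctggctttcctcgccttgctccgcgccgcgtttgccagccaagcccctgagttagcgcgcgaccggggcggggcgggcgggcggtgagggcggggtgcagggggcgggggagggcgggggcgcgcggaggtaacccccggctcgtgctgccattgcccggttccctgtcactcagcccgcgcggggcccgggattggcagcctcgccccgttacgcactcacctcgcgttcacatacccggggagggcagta
DBX1, chr2:39229092-39229391, plus strand: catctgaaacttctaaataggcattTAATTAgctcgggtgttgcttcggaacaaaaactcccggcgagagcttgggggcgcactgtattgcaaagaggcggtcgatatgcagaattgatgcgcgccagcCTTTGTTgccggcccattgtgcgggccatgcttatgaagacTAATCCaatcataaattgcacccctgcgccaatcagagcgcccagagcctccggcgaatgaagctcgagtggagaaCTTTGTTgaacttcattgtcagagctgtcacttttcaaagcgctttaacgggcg
No match was present in the EMX2, OTX1, SIM1 or HOXA2 window. The DBX1 window held 1 TAATTA, 1 TAATCC and 2 CTTTGNT matches, none overlapping another, and its GC content was 51.0% against 62.7% for EMX2 and 75.0% for OTX1. Of the 20637 gene windows of this length, 5.18% held TAATTA, 6.62% TAATCC, 15.7% CTTTGNT and 0.237% TGGGTGGTC. These are letter matches and not binding sites.

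On whole libraries, DBX1 and OTX1 were highest on D11 and lower on both later days. DBX1 reached 40.8 and 32.99 CPM (UMIs of the gene scaled by all UMIs of the library or group of cells) in D11 A and B, 3.75 and 13.3 CPM in D28 A and B, and 0.735 and 1.66 CPM in D45 A and B. The 3 days did not overlap, and every D11 library lay above every later one. Summing UMIs per library and fitting all 6 libraries with edgeR's quasi-likelihood test, DBX1 fell by 2.44 on the log2 scale from D11 to D28 (SE 0.57, edgeR adjusted p = 0.024) and by 5.33 from D11 to D45 (SE 0.65, edgeR adjusted p = 0.00147). It also fell by 2.90 from D28 to D45 (SE 0.59, edgeR adjusted p = 0.0318). The D28 call was lost without D11 A (adjusted p = 0.102) or D11 B (adjusted p = 0.0749). The D28 to D45 call was lost without D11 A, D11 B, D45 A or D45 B, at adjusted p of 0.0648, 0.0642, 0.21 and 0.112, and it was -1.90 without D28 B, whereas the fall from D11 to D45 passed in each alternative run. A lower level in a summed library cannot tell fewer expressing cells from less RNA per cell.

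OTX1, which with OTX2 maintains forebrain and midbrain territory, was at 28.2 and 19.6 CPM in D11 A and B. Its level was 5.56 and 9.40 CPM in D28 A and B and 6.83 and 5.79 CPM in D45 A and B. Both D11 libraries lay above all 4 later libraries, while D28 and D45 overlapped. OTX1 fell by 1.96 on the log2 scale from D11 to D28 (SE 0.26, edgeR adjusted p = 0.00355) and by 2.33 from D11 to D45 (SE 0.27, edgeR adjusted p = 0.00114). Between D28 and D45 the log2 difference was -0.37 (edgeR adjusted p = 0.353). Both falls from D11 passed in each alternative run.

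EMX2 had no call between days. Its level was 24.8 and 13.4 CPM in D11 A and B, 1.82 and 17.2 CPM in D28 A and B, and 4.02 and 10.6 CPM in D45 A and B. The spread between the D28 replicates was wider than the distance between the day means, which were 19.1 ± 8.10, 9.50 ± 10.9 and 7.29 ± 4.62 CPM (SD, n = 2). The log2 difference was -1.35 from D11 to D28 (SE 0.89, edgeR adjusted p = 0.306) and -1.77 from D11 to D45 (SE 0.90, edgeR adjusted p = 0.169). D28 B decided this outcome, since without it EMX2 was lower on D28 by 3.53 on the log2 scale (edgeR adjusted p = 0.00201). The D45 difference passed without D28 A (-1.72, adjusted p = 0.00893) or without D28 B (-1.78, adjusted p = 0.00701).

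SIM1 had no call between days with all libraries, and its D28 replicates lay far apart. The level was 11.9 and 12.1 CPM in D11 A and B, 5.71 and 24.8 CPM in D28 A and B, and 8.13 and 7.55 CPM in D45 A and B. D28 A lay below every other library and D28 B above every other, so the D28 group spanned all the rest. The log2 difference of D28 against D11 was 0.02 (SE 0.51, edgeR adjusted p = 0.983), and it became 0.68 without D28 A (adjusted p = 0.0138) and -1.21 without D28 B (adjusted p = 0.000993). From D11 to D45 it was -1.02 (SE 0.52, edgeR adjusted p = 0.171), and it passed without D28 A (adjusted p = 0.000475) or D28 B (adjusted p = 0.000391). Against D28, D45 differed by -1.04 (edgeR adjusted p = 0.217), by -1.65 without D28 A (adjusted p = 0.000494) and by 0.19 without D28 B. The neuron-like cluster in which SIM1 was highest on D28 and D45, described below with the clusters, had 838 cells of D28 A and 1940 of D28 B. The part of this difference in cell makeup in the SIM1 level was not tested.

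HOXA2 stayed near the detection limit throughout. The counts were 134 and 166 UMIs in D11 A and B, 74 and 53 in D28 A and B, and 24 and 46 in D45 A and B. As levels these were 0.847 and 0.922 CPM on D11, 0.693 and 0.421 CPM on D28, and 0.203 and 0.363 CPM on D45, so no 2 days overlapped. HOXA2 fell by 2.04 on the log2 scale from D11 to D45 (SE 0.46, edgeR adjusted p = 0.0144). This call was lost without D11 A (adjusted p = 0.0666), D11 B (0.0937) or D45 A (0.106), and in cells thinned to 1500 UMIs (-1.30, adjusted p = 0.187). The difference was -0.91 from D11 to D28 (edgeR adjusted p = 0.179; -1.45 and 0.0239 without D28 A) and -1.14 from D28 to D45 (edgeR adjusted p = 0.147; -1.55 and 0.0117 without D28 B).

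**Figure D1:**
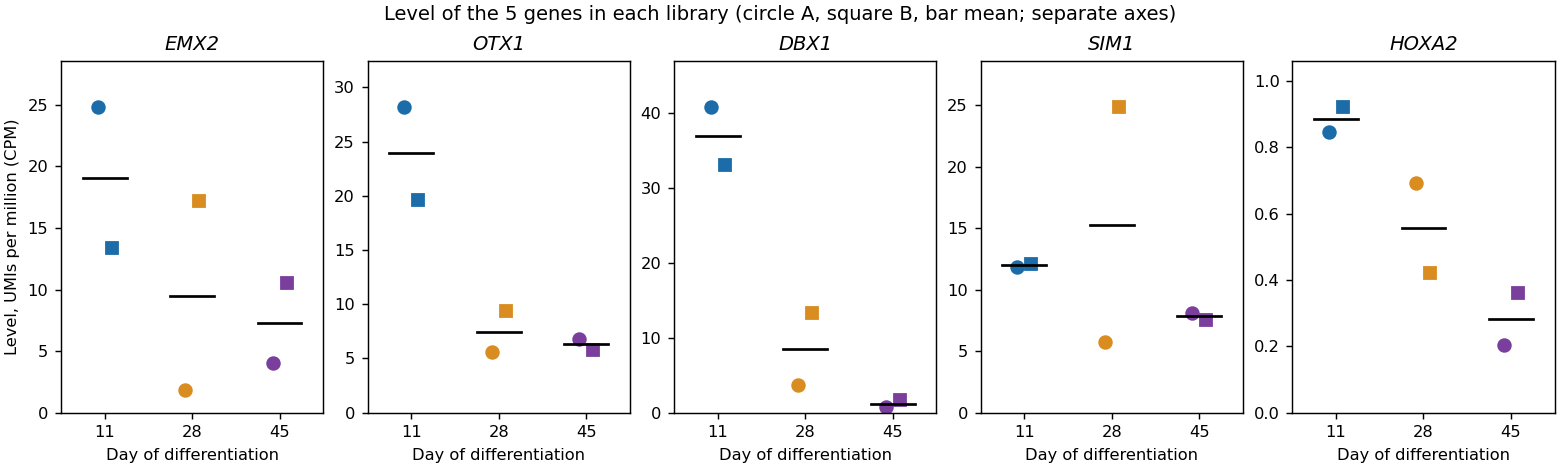
Level of each gene in CPM (y axis, linear, a separate scale per gene) by day of culture (x axis), circles for replicate A, squares for B and bars for the mean of 2 libraries. OTX1 and DBX1 are highest in both D11 libraries, and the D28 replicates of SIM1 lie at 5.71 and 24.8 CPM.

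Counted over the members, 2 of 5 were lower on D28 against D11 and the other 3 did not pass, where 10.6% of the 22192 genes tested were lower. On D45 against D11, 3 of 5 were lower, against 17.4% of all genes, and on D45 against D28 1 of 5 was lower, against 4.93% of all genes. The 3 comparisons share libraries and are not independent of each other. The share of cells with at least 1 UMI fell in the same order for DBX1, from 13.2% and 8.11% in D11 A and B to 0.931% and 4.33% on D28 and 0.234% and 0.809% on D45. With each cell thinned to 1500 UMIs, DBX1 was still found in 4.64% and 3.59% of D11 cells, 0.562% and 1.72% of D28 cells and 0.104% and 0.267% of D45 cells. SIM1 was found in 1.62% and 1.63% of thinned D11 cells, 1.2% and 3.65% of D28 cells and 1.10% and 0.919% of D45 cells. Thinning left out 1404 to 8583 shallower cells per library. Intervals and floors given for single libraries cover counting error only.

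The other position genes moved in more than 1 direction by D45. Of 7 tested hypothalamus genes, 3 were higher on D45 than on D11, namely RAX (log2 difference 1.82), SIX3 (3.61) and SIX6 (5.13), transcription factors of the optic and hypothalamic anlage, and 4 did not pass, where 17.3% of all genes were higher. The median log2 difference of this list was 1.66, against -0.01 over all genes. Of 9 tested midbrain and isthmus genes, 6 were lower, where 17.4% of all genes were, among them EN1 (-2.13), OTX2 (-2.14) and PAX5 (-3.68), and 3 did not pass, with a list median of -1.55. Of 6 tested hindbrain genes, 3 were lower, GBX2 (-4.98) among them, and HOXD3 was higher. HOXD3 had 0 UMIs in each D11 library and 43 and 73 in D45 A and B. Of 10 diencephalon genes, 3 were higher (TCF7L2, LHX9 and PAX6) and 2 lower (FOXB1 and LHX5). Of 6 tested telencephalon genes, EOMES was higher and 5 did not pass. EOMES was near the detection limit, with 0 UMIs in each D11 library and 27 and 40 in D45 A and B. The close relatives DBX2 (4.23) and SIM2 (1.27) were both higher on D45, the opposite direction to DBX1. The DBX2 value rests on low counts, 6 and 11 UMIs in D11 A and B and 157 and 153 in D45 A and B.

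EMX2, OTX1 and DBX1 were all higher in cells with WNT8B on each day. For each library, UMIs were summed over cells with at least 1 WNT8B UMI and over cells with none, and the sums were compared within libraries. On D11, EMX2 was at 88.1 and 67.7 CPM in the WNT8B-positive cells of A and B, against 5.98 and 3.43 CPM in the negative cells. OTX1 was at 81.9 and 75.3 CPM against 12.2 and 9.43 CPM. DBX1 was at 150.5 and 174.6 CPM against 8.10 and 7.09 CPM. In all 3 genes both positive sums lay far above both negative sums. The log2 difference was 4.06 for EMX2 (SE 0.12, edgeR adjusted p = 2.47e-08), 2.85 for OTX1 (SE 0.09, edgeR adjusted p = 3.04e-08) and 4.40 for DBX1 (SE 0.14, edgeR adjusted p = 3.04e-08). SIM1 was at 19.7 and 26.6 CPM against 9.56 and 9.40 CPM, a log2 difference of 1.25 (SE 0.23, edgeR adjusted p = 0.00149). HOXA2, with 3 and 6 UMIs in the positive cells, was lower by 2.92 (SE 0.51, edgeR adjusted p = 0.00101). Thus 4 of 5 members were higher and 1 lower, where 19.5% of 21746 genes were higher and 19% lower. Because the members were chosen with earlier results known, this count describes them and is not independent support.

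The association of EMX2, OTX1 and DBX1 with WNT8B was seen on every day. On D28, DBX1 was at 63.7 and 103.9 CPM in the WNT8B-positive cells of A and B and at 1.32 and 3.82 CPM in the negative cells, a log2 difference of 5.04 (edgeR adjusted p = 6.07e-07). EMX2 differed by 3.38 (edgeR adjusted p = 9.65e-07), OTX1 by 1.78 (edgeR adjusted p = 1.02e-05) and SIM1 by 1.11 (edgeR adjusted p = 0.0218), so that 4 of 5 members were higher against 7.1% of all genes. On D45 3 of 5 were higher against 15.4% of all genes, with DBX1 at 5.93 and 8.01 CPM against 0.519 and 0.939 CPM. The D45 log2 differences were 1.42 for EMX2, 1.5005 for OTX1 and 3.34 for DBX1 (edgeR adjusted p = 5.62e-05, 1.63e-05 and 1.65e-05), while SIM1 differed by 0.28 (adjusted p = 0.592) and HOXA2 by 0.43 (adjusted p = 0.741). WNT8B-positive cells were deeper than the others on D11 (medians of 12037.5 against 10401 UMIs in A and 12304.5 against 8293 in B) and more so on D45 (13283.5 against 2183.5 and 14429 against 3810). In cells thinned to 1500 UMIs, EMX2, OTX1 and DBX1 remained called on D11, at 2.62, 1.77 and 2.70, and EMX2 and DBX1 on D28, at 2.92 and 4.06. Calls lost in thinned cells were SIM1 (adjusted p = 0.169) and HOXA2 on D11, OTX1 (adjusted p = 0.0576) and SIM1 on D28, and all 3 on D45. The D28 call of SIM1 was also lost without D28 B (0.14, adjusted p = 0.903), with called doublets removed (adjusted p = 0.0704) and with DESeq2 (adjusted p = 0.0951).

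FOXA2 showed the opposite pattern. On D11, EMX2 was at 3.67 and 3.13 CPM in the FOXA2-positive cells of A and B, against 43.4 and 25.3 CPM in the negative cells. DBX1 was at 10.4 and 11.0 CPM against 67.4 and 58.6 CPM, and OTX1 at 9.32 and 9.04 CPM against 44.7 and 31.9 CPM. Both negative sums lay above both positive sums in each case. EMX2 was lower by 3.17 on the log2 scale (SE 0.23, edgeR adjusted p = 0.000106), OTX1 by 1.92 (SE 0.14, edgeR adjusted p = 9.37e-05), DBX1 by 2.43 (SE 0.23, edgeR adjusted p = 0.000488) and SIM1 by 1.29 (SE 0.27, edgeR adjusted p = 0.0119). On D11 therefore 4 of 5 members were lower, where 9.93% of 22088 genes were. On D28 the same 4 were lower, against 15.3% of all genes, with log2 differences of -3.14, -1.45, -2.93 and -2.77 for EMX2, OTX1, DBX1 and SIM1. DBX1 had 3 and 97 UMIs in the FOXA2-positive cells of D28 A and B, and its difference was -5.17 without D28 B. On D45 3 were lower, against 10.6% of all genes: EMX2 (-1.69, edgeR adjusted p = 0.0225), OTX1 (-0.86, edgeR adjusted p = 0.0341) and SIM1 (-1.71, edgeR adjusted p = 0.0403). DBX1 had 0 UMIs in the 348 and 380 FOXA2-positive cells of D45 A and B, which allows a level of up to 0.262 CPM at 3 counts over both libraries. Its level over the negative cells was at least 4.86-fold higher than that limit.

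FOXA2-positive cells were the deeper ones, with medians of 11806 against 9753 UMIs in D11 A and 11564 against 2640 in D11 B. In thinned cells all 4 D11 calls remained. On D28 DBX1 and SIM1 remained, whereas EMX2 (-1.41, adjusted p = 0.14) and OTX1 (-0.02, adjusted p = 0.994) were lost, and on D45 none remained. The D11 call of SIM1 was lost without D11 A (adjusted p = 0.158) or D11 B (adjusted p = 0.154) and with DESeq2 (adjusted p = 0.284). On D45 EMX2 was lost without D45 B (-0.64, adjusted p = 0.378) and was -2.64 without D45 A, OTX1 without D45 A (adjusted p = 0.0806) or D45 B (adjusted p = 0.227) and SIM1 without D45 A (-0.81, adjusted p = 0.0926), while SIM1 was -4.50 without D45 B. Over all 4 partners and 3 days, 22 of 37 member calls remained in thinned cells, 35 remained with called doublets removed and 32 with DESeq2, and 9 were lost without at least 1 of the libraries.

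**Figure D2:**
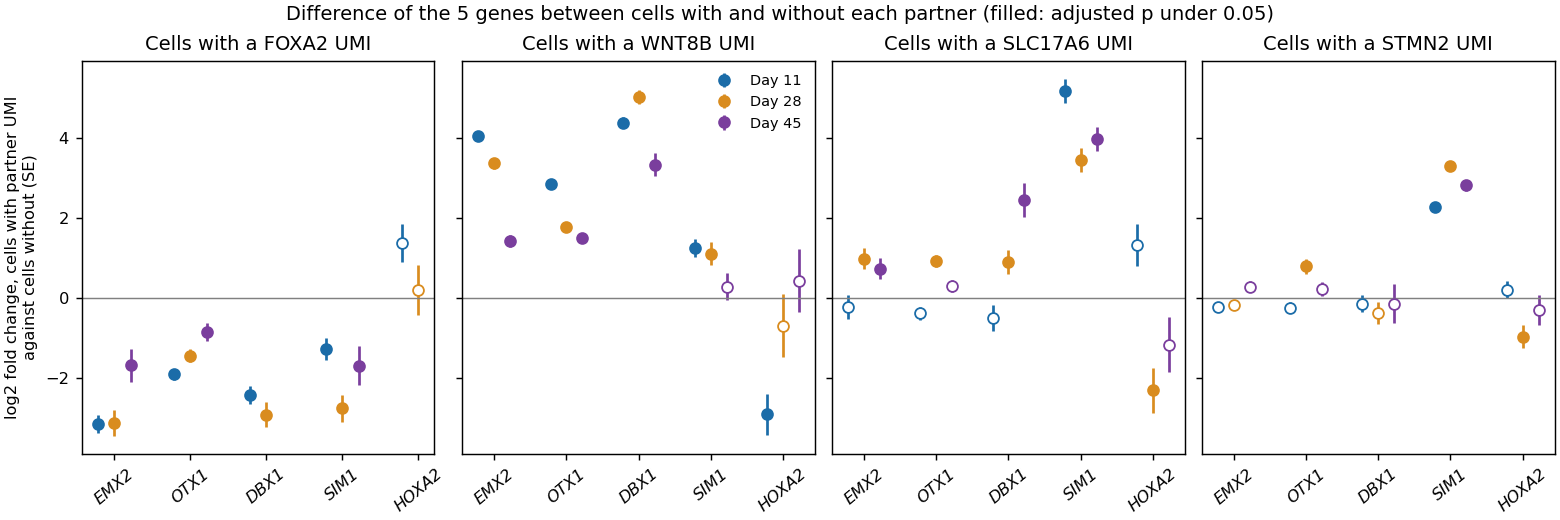
Log2 fold change of each gene (y axis, error bars SE) between cells with and without a UMI of the partner named above each panel, by gene (x axis) and day (colour). Filled points passed an edgeR adjusted p of 0.05, and points with 3 or fewer UMIs on either side (DBX1 and HOXA2 with FOXA2 on D45) are left out; EMX2, OTX1 and DBX1 lie below 0 with FOXA2 and above 0 with WNT8B, and SIM1 lies highest with SLC17A6.

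In single cells the counts gave the same separation. Of the 2120 and 1337 cells with an EMX2 UMI in D11 A and B, 77.8% (95% exact interval 76.0 to 79.6) and 72.0% (69.5 to 74.3) also held WNT8B, whereas 7.59% (6.50 to 8.80) and 13.5% (11.7 to 15.4) held FOXA2. Read from the partner, EMX2 was in 57.1% and 42.7% of WNT8B-positive cells and in 3.98% and 1.94% of the others. DBX1 cells held WNT8B in 78.1% and 69.1% and OTX1 cells in 61.0% and 51.5%. For comparison, only 2.78% and 4.23% of HOXA2 cells held WNT8B.

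EMX2, OTX1 and DBX1 also accompanied each other. Of EMX2 cells, 60.0% and 55.1% held OTX1 and 51.8% and 57.6% held DBX1 in D11 A and B. All 3 genes were detected in 732 cells of D11 A (4.98%) and 499 of D11 B (2.32%). On D28 this fell to 4 cells in A and 107 in B (0.771%), and on D45 to 0 and 2 cells. The share with WNT8B increased with the number of these genes in a cell, from 4.31% with none to 40.7%, 76.0% and 90.3% with 1, 2 and 3 in D11 A, and from 3.07% to 29.1%, 74.9% and 88.6% in D11 B. Over the same steps FOXA2 went from 48.9% to 24.2%, 8.32% and 7.38% in D11 A and from 39.6% to 31.8%, 15.4% and 14.8% in D11 B. In cells thinned to 1500 UMIs, the WNT8B share still increased from 5.17% with none to 26.6% with 1 in D11 A. In D11 B it increased from 2.83% to 23.8%. With 2, WNT8B was in 45 of the 150 cells in A and in 30.3% in B, and the exact intervals for 1 and 2 overlapped in both. With all 3, it was in 2 of 9 cells in A and 3 of 11 in B, too few to read a further step. The thinned FOXA2 share went from 13.2% to 2.78% and 1.33% in A and from 14.2% to 3.03% and 3.36% in B.

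**Figure D3:**
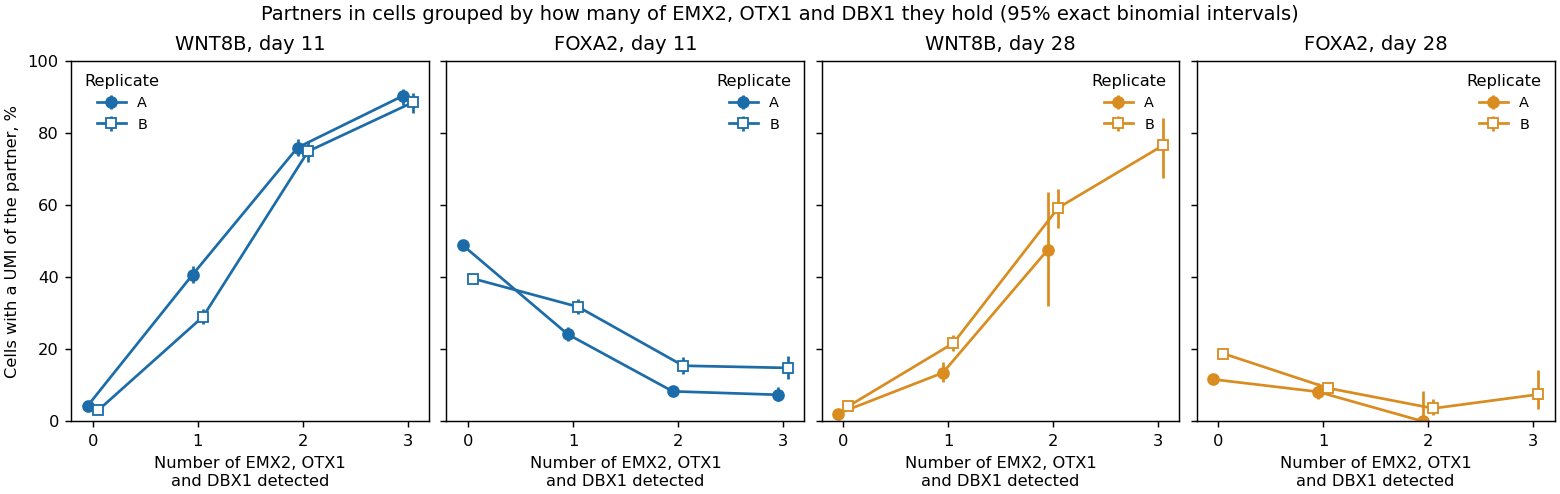
Share of cells with a UMI of WNT8B or FOXA2 (y axis, percent, error bars 95% exact binomial intervals) by how many of EMX2, OTX1 and DBX1 the cell held (x axis), in the D11 and D28 libraries, filled for replicate A and open for B, groups under 40 cells left out. The WNT8B share reaches 90.3% and 88.6% on D11, where the FOXA2 share drops to 7.38% and 14.8%.

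The hypothalamus genes were mostly higher with WNT8B and lower with FOXA2 on D11. The midbrain and isthmus genes were mostly lower with WNT8B, with a list median of -1.13, and the other position lists were mixed with it. With WNT8B, where 19.5% of all genes were higher and 19% lower, 6 of 7 hypothalamus genes were higher, including NKX2-1 (log2 difference 3.01), RAX (2.03), SIX3 (2.52) and FEZF1 (2.99), with a list median of 2.52 against 0.00 over all genes. With FOXA2, 5 of these 7 were lower and 2 did not pass, against 9.93% of all genes lower, with a list median of -2.90. Of 10 diencephalon genes, 4 were higher with WNT8B, among them BARHL2 (4.08) and LHX5 (2.91), and 2 lower. Of 9 midbrain and isthmus genes, 2 were higher with WNT8B (OTX2 at 1.81 and SPRY1) and 6 lower, among them EN1 (-1.29), EN2 (-1.93) and LMX1B (-1.98). Among hindbrain genes, EGR2 was higher and GBX2 (-2.80) lower. Of 6 telencephalon genes, LHX2 (2.31) and FEZF2 (2.93) were higher and DMRTA2 lower. With FOXA2, 0 of 6 telencephalon genes were higher and 2 lower, and 1 of 10 diencephalon genes was higher and 2 lower. Of 9 midbrain and isthmus genes, 2 were higher and 1 lower with FOXA2. Of 6 tested hindbrain genes, 2 were higher with FOXA2, GBX2 (2.25) among them, and 1 lower. The share of all genes higher with FOXA2 is not given here, so these counts of higher genes cannot be read as an excess. The median log2 difference with FOXA2 was 0.31 for the midbrain and isthmus list and 0.0 for the hindbrain list, against -0.003 over all genes.

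SIM1 stood out from the other members by its level in cells with SLC17A6. In SLC17A6-positive cells of D11 A and B it reached 311.5 and 267.8 CPM, against 6.44 and 6.60 CPM in the negative cells. On D28 it was at 15.3 and 99.8 CPM against 2.55 and 4.98 CPM, and on D45 at 38.3 and 35.9 CPM against 2.83 and 1.67 CPM. In each library the positive sum was several-fold above the negative one. The log2 difference was 5.20 on D11 (SE 0.30, edgeR adjusted p = 2.33e-08), 3.45 on D28 (SE 0.30, edgeR adjusted p = 8.51e-07) and 3.99 on D45 (SE 0.30, edgeR adjusted p = 1.37e-06). On D11 it was the 1 member of 5 called with SLC17A6, where 13.0% of 21282 genes were higher. STMN2 gave the same direction, with SIM1 higher by 2.27, 3.32 and 2.83 on the 3 days (edgeR adjusted p = 1.35e-07, 4.86e-07 and 1.1e-05). With STMN2 1, 2 and 1 members were higher on D11, D28 and D45, against 13.1%, 17.2% and 15.1% of 21661 genes. These SIM1 calls all remained in thinned cells.

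For EMX2, OTX1 and DBX1, the difference with SLC17A6 changed between days in OTX1 from D11 to D28 (by 1.31, edgeR adjusted p = 0.00192) and in DBX1 from D11 to D45 (by 2.96, edgeR adjusted p = 0.00185), and no change of EMX2 passed. The first was lost without D11 A (adjusted p = 0.0512) and the second without D45 B (1.60, adjusted p = 0.131). On D11, EMX2, OTX1 and DBX1 gave log2 differences of -0.23, -0.38 and -0.51, none of which passed with all libraries; without D28 A, OTX1 (adjusted p = 0.0188) and DBX1 (adjusted p = 0.000311) passed. On D28 EMX2 (0.98), OTX1 (0.92) and DBX1 (0.90) were higher in SLC17A6-positive cells at edgeR adjusted p of 0.00797, 0.000144 and 0.0299, so that 4 of 5 members were higher against 19.8% of all genes. On D45 DBX1 was at 1.47 and 6.48 CPM in the positive cells of A and B against 0.606 and 0.666 CPM, higher by 2.45 (edgeR adjusted p = 0.000722), and EMX2 was higher by 0.73 (edgeR adjusted p = 0.0498). With SIM1 this made 3 of 5, against 13.3% of all genes. The D28 call of DBX1 was lost in thinned cells, with DESeq2 (adjusted p = 0.196) and without D11 A, D11 B or D28 A (adjusted p = 0.0625, 0.0632 and 0.142), the value being 0.28 without D28 A and 1.69 without D28 B. Its D45 call was lost without D45 B (1.19, adjusted p = 0.189). EMX2 on D45 was at 4.12 and 21.3 CPM in the positive cells of A and B against 4.00 and 8.34 CPM, so that its difference was -0.04 without D45 B (adjusted p = 0.956) and 1.24 without D45 A. The D45 call of EMX2 was also lost with called doublets removed (adjusted p = 0.0783), with DESeq2 (adjusted p = 0.111) and without D11 A or D11 B (adjusted p = 0.0661 and 0.0653). In STMN2-positive cells OTX1 was higher on D28 by 0.80 (edgeR adjusted p = 0.00702; 0.49 without D28 A and 1.39 without D28 B), and EMX2 and DBX1 passed on no day, although DBX1 on D28 passed in thinned cells (-1.01, adjusted p = 0.00227).

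SIM1 cells of D11 were counted by the partner they held. In D11 A and B, 45.4% and 40.7% of SIM1 cells held WNT8B without SLC17A6, 25.4% and 26.6% held SLC17A6 without WNT8B, 3.47% and 2.12% held both, and 25.7% and 30.6% held neither. STMN2 was in 27.2% and 39.0% of the SIM1 cells with WNT8B alone, in 94.5% and 99.6% of those with SLC17A6 alone and in 53.0% and 49.1% of those with neither. Over all cells with WNT8B alone, SIM1 was at 16.3 and 23.7 CPM, and over all cells with SLC17A6 alone at 301.9 and 266.4 CPM. In D28 A and B, 56.0% and 59.7% of SIM1 cells held SLC17A6 alone, 1.07% and 2.78% WNT8B alone, 3.49% and 15.3% both and 39.4% and 22.2% neither. The D28 B cells with both partners had SIM1 at 174.3 CPM, above the 88.8 CPM of those with SLC17A6 alone. The order was the same in D11 A (381.5 against 301.9 CPM) and D11 B (282.4 against 266.4 CPM). It was reversed in D28 A (11.9 against 15.6 CPM), D45 A (14.1 against 40.2 CPM) and D45 B (29.1 against 37.7 CPM). In D45 A and B, 52.2% and 54.4% held SLC17A6 alone, 0.276% and 3.13% WNT8B alone, 1.66% and 6.88% both and 45.9% and 35.6% neither. STMN2 was in 96.2% and 94.1% of SIM1 cells on D28 and in 92.0% and 90.0% on D45. Of all cells, 26.8% and 33.4% held STMN2 in D11 A and B. The counts were 10693 of 14291 and 9657 of 13870 cells in D28 A and B. In D45 A and B they were 14474 of 20094 and 12619 of 18425. A STMN2 UMI was also found in 57.5% of fibroblast-like cells, so 1 UMI does not by itself mark a neuron. Where no SLC17A6 UMI was seen, SIM1 was found in 3.55% and 3.19% of D11 cells, against 76.5% and 68.4% of the SLC17A6-positive cells.

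HOXA2 was seldom found in the D11 cells with EMX2. On D11, 80 of 108 HOXA2 cells in A (74.1%, exact interval 64.8 to 82.0) and 89 of 142 in B (62.7%, 54.2 to 70.6) also held FOXA2. Of all D11 cells, 40.1% and 37.3% held FOXA2 in A and B. Thinned to 1500 UMIs, only 27 D11 cells held HOXA2, and 5 of them held FOXA2. FOXA2 was then in 1606 of 13303 cells of A and 2046 of 15200 of B. These are too few HOXA2 cells to tell whether the excess holds at equal depth. The HOXA2 level was 1.42 and 1.09 CPM in FOXA2-positive cells, from 105 and 106 UMIs, against 0.344 and 0.722 CPM in the others, from 29 and 60 UMIs. The positive sums lay above the negative ones in both libraries, yet the log2 difference of 1.37 did not pass (SE 0.47, edgeR adjusted p = 0.0786); it passed with no filter on low counts (adjusted p = 0.0375) or with at least 2 FOXA2 UMIs required (1.67, adjusted p = 0.0483). Of the 108 and 142 HOXA2 cells of D11 A and B, 4 and 3 held EMX2, which was in 14.4% and 6.20% of all D11 cells. On D28 HOXA2 was lower in SLC17A6-positive cells, at 0.265 and 0.0379 CPM from 7 and 1 UMIs against 0.834 and 0.522 CPM, by 2.32 on the log2 scale (edgeR adjusted p = 0.00402, 26.3% of all genes lower). It was lower in STMN2-positive cells as well, by 0.97 (edgeR adjusted p = 0.0218, 23.5% of all genes lower). Both calls were lost in thinned cells, and the latter also with DESeq2 (adjusted p = 0.0805) and without D28 A (-0.63, adjusted p = 0.285), while the former was -3.84 without D28 A.

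The cells were then clustered without the 5 genes and the 4 partners, giving 33 clusters of at least 100 cells, and levels are described without a test. With the libraries of a cluster pooled, EMX2, OTX1 and DBX1 were highest in the same 2 clusters, mostly of D11 cells. Cluster 8 (4377 cells, led by PMCH, which encodes the hypothalamic neuropeptide melanin-concentrating hormone, and MECOM) met too few markers to be named. Cluster 21 (1987 cells, led by TOP2A and CENPF) was mitotic-like. EMX2 was at 87.8 and 64.9 CPM in D11 A and B of cluster 8 and at 81.7 and 66.2 CPM in cluster 21, so the 2 clusters differed by less than the libraries did. OTX1 was at 92.4 and 86.3 CPM and at 75.9 and 79.7 CPM, and DBX1 at 129.3 and 164.8 CPM and at 140.9 and 160.5 CPM. Together the 2 clusters held 31.4% and 22.9% of all EMX2 UMIs, 33.4% and 21.6% of those of OTX1 and 41.2% and 32.1% of those of DBX1. A floor plate-like cluster of 539 D11 cells, 53.2% of them called doublets, came next for DBX1 after a neuron-like cluster, at 50.6 and 75.2 CPM in A and B.

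Later cells with these genes were of several other kinds. Cluster 19, a neural progenitor-like cluster led by LTBP1 and MT3, had 31, 927, 430 and 612 cells in D28 A, D28 B, D45 A and D45 B. Its EMX2 level was 86.7, 106.0, 23.4 and 42.2 CPM in that order, and its DBX1 level 126.9, 83.4, 2.41 and 1.07 CPM. Within this cluster DBX1 was thus far lower in both D45 libraries than in both D28 libraries. EMX2 was also present in cluster 13, a neuron-like cluster led by TAC3 and SIM1, at 10.5 and 53.7 CPM in D28 A and B and 16.9 and 108.6 CPM in D45 A and B. The D28 B level in cluster 19 and the D45 B level in cluster 13 were thus above those of EMX2 in the D11 libraries of clusters 8 and 21. In the dopaminergic neuron-like cluster, DBX1 was at 2.27 and 8.35 CPM in D28 A and B. It was at 3.44 and 10.5 CPM there in D45 A and B, against 0.735 and 1.66 CPM in the whole libraries. In the astrocyte-like clusters, OTX1 was at 16.9 and 9.41 CPM in D45 A and B, against 6.83 and 5.79 CPM in the whole libraries.

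SIM1 had its highest level in cluster 27, a neuron-like D11 cluster of 891 cells led by ACTC1, CRABP1, DLL3 and SIM1, at 318.3 and 321.8 CPM in A and B and in 75.9% of its cells. Cluster 13 followed, at 76.8 and 180.3 CPM in D28 A and B and 49.6 and 265.7 CPM in D45 A and B. Pooled over libraries, all other clusters were at or below 19.2 CPM, although single libraries went higher. In cluster 7, a GABAergic neuron-like cluster led by GAD2 and DLX5 with SLC17A6 in 27.4% of its cells, SIM1 was at 9.98 and 7.58 CPM in D28 A and B and at 31.05 and 4.25 CPM in D45 A and B. The D45 A part of this cluster had 2124 cells, against 87 cells of D45 A in cluster 13. Cluster 1, which was not named, was at 30.7 and 39.2 CPM in D28 A and B and at 18.4 and 16.2 CPM in D45 A and B. HOXA2 was highest in cluster 20, a neural progenitor-like D11 cluster led by PAX5 and FGFBP3, at 4.75 and 4.84 CPM in A and B, and this cluster held 21.9% of all HOXA2 UMIs. A FOXA2-expressing mitotic cluster at 2.14 CPM and a fibroblast-like cluster at 2.06 CPM came next, the latter from D28 A (3.94 CPM) and D28 B (3.81 CPM) mainly.

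In the fibroblast-like clusters, where EMX2, OTX1, DBX1 and SIM1 are not expected, they were at 1.28, 0.754, 0.189 and 0.587 CPM. The oligodendrocyte lineage-like cluster had them at 0.796, 0.853, 0.227 and 2.16 CPM, with SIM1 at 9.75 CPM in its 81 cells of D28 B. The part of free RNA and of doublets in these values was not tested. They give no background for D11, which had 3 and 22 fibroblast-like cells in A and B and none of the oligodendrocyte lineage-like cells. HOXA2 was at 1.78 CPM in the fibroblast-like clusters and at 0.114 CPM in the oligodendrocyte lineage-like cluster. With libraries pooled, EMX2 in the dopaminergic neuron-like cluster was at 2.18 CPM, OTX1 at 7.95 CPM, DBX1 at 6.22 CPM and SIM1 at 3.21 CPM. HOXA2 had 0 UMIs in the 1729 cells of that cluster.

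**Figure D4:**
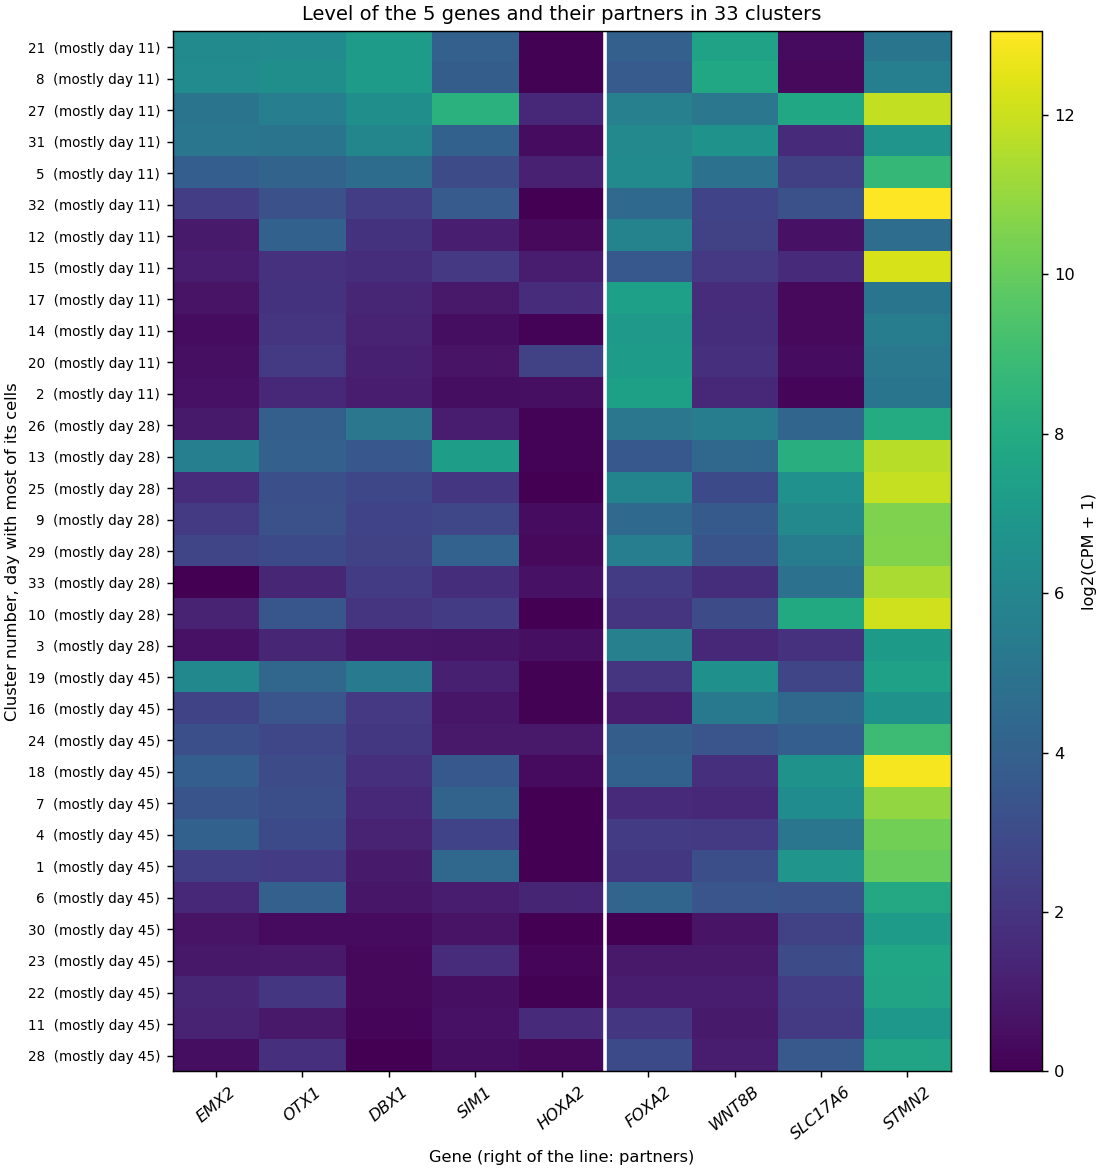
Level of the 5 genes (left of the white line) and their partners (right) in the 33 clusters of at least 100 cells (rows, with number and main day), colour log2(CPM + 1). EMX2, OTX1, DBX1 and WNT8B are bright together in clusters 21, 8 and 31, SIM1 and SLC17A6 in clusters 27 and 13, and HOXA2 stays dark, at most 4.78 CPM.

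Across the 33 clusters, the genes whose log2(CPM + 5) followed each member most closely were drawn from 7711 genes reaching 50 CPM in some cluster, a description in which the clusters share libraries and depth. DBX1 was closest to WNT8B (Pearson r = 0.93), MECOM (0.91) and OTX1 (0.91), and OTX1 to DBX1 (0.91), WNT8B (0.90) and OTX2 (0.88). EMX2 was closest to LHX5 (0.85), NKX2-1 (0.85), OTX1 (0.81), WNT8B (0.81) and DBX1 (0.81). SIM1 was closest to LHX5 (0.88) and NEUROD1 (0.82), a neuronal differentiation factor, and then to DACH2 (0.76), UNCX (0.76) and NT5DC3 (0.74). The closest to HOXA2 were SLCO2A1 at 0.69, COL23A1 at 0.64 and QSOX1 at 0.64. SIM1 correlated with EMX2 at 0.61, OTX1 at 0.53 and DBX1 at 0.50, and HOXA2 with the other members between -0.20 and -0.06. HOXA2 reached at most 4.78 CPM in a cluster, less than the 5 added before the logarithm. Its range was therefore narrow, and its low correlations cannot be read as a pattern of this gene.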

How the data were processed

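Single-cell RNA was measured in 6 libraries of pig midbrain-like organoids, biological duplicates on D11, D28 and D45, with the GEM-X Single Cell 3' v4 kit. The authors deposited filtered matrices of raw UMI counts per gene and cell, made with Cell Ranger 8.0.1 on Sscrofa11.1, several runs of a library being merged; the annotation release was not given in the sources used here. Seurat 4.3.0 is also named in the submitters' notes. Antisense or overlapping genes were not separated here.

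Cells with 200 to 7000 genes and at most 10% mitochondrial UMIs were kept. Doublets were called at an assumed rate of 0.4% per 1000 cells, which fixed the share called at 5.55% to 8.62% of cells per library. They were kept, and were removed in an alternative. Depth was 106805311 to 180034791 kept UMIs per library, and shares carry 95% exact binomial intervals. UMIs were summed per library and tested with edgeR 4.0.16 (R 4.3.3; quasi-likelihood, TMM, filterByExpr, Benjamini-Hochberg over all genes, threshold 0.05), with day as the covariate, or, for cells with and without a partner UMI, with the library as a block. Samples were grouped by their titles. The p-values of the day tests rest on the spread between the 2 libraries of a day, pooled over all 6. Those of the partner tests rest on the spread of the differences within libraries, since the block takes out the spread between libraries. In both, the estimate of the spread borrows from other genes. Clusters came from scanpy 1.11.5 (2000 variable genes without the members and partners, 30 components, 20 neighbours, Leiden 0.8), named from markers in a fixed list. Alternatives were DESeq2 1.42.0, its size factors, no low-count filter, blocks, other cell filters, thinning to 1500 or 3000 UMIs, 2 or more UMIs, other clusterings and leaving out each library. The code was tested on simulated data. Named genes were the 5 members, the 4 partners, the position lists (some of their genes are not reported here) and, per member, the 5 genes most alike over clusters. The members and lists were chosen with earlier results of these data known.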

Additional observations from a re-analysis of the deposited data

Results flagged for a closer look

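The effect of a partner was compared between days inside the same edgeR fit, and 15 of 60 such differences of log2 fold changes between days passed, while 1.5% to 32.6% of all genes tested did in the 12 comparisons. No explanation was tested for any of them, and depth, cell number and cell makeup differed between the days.

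With WNT8B, EMX2 had log2 differences of 4.06, 3.38 and 1.42 on the 3 successive days. The change was -0.69 from D11 to D28 (edgeR adjusted p = 0.0228), -2.64 from D11 to D45 (edgeR adjusted p = 2.58e-06) and -1.95 from D28 to D45 (edgeR adjusted p = 8.65e-05). The first of these was 0.30 in cells thinned to 1500 UMIs (adjusted p = 0.831), and it was lost without D11 B (-0.47, adjusted p = 0.19) or D28 B (-0.42, adjusted p = 0.405). For OTX1, which went from 2.85 to 1.78 and then 1.5005, the change was -1.07 from D11 to D28 (edgeR adjusted p = 0.000913) and -1.35 from D11 to D45 (edgeR adjusted p = 6.62e-05). DBX1 went from 4.40 to 5.04 and 3.34, a change of -1.06 from D11 to D45 (edgeR adjusted p = 0.0189) and of -1.70 from D28 to D45 (edgeR adjusted p = 0.00331), and without D45 B both were lost (-0.83 and -1.51, adjusted p = 0.273 and 0.0715). HOXA2 changed by 3.35 from D11 to D45 (edgeR adjusted p = 0.0367), on 9 UMIs in the WNT8B-positive cells of D11 and 7 in those of D45, and was lost without D11 A (2.71, adjusted p = 0.0761) and turned to -3.68 without D45 B.

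With SLC17A6, SIM1 changed by -1.74 from D11 to D28 (edgeR adjusted p = 0.0108) and by -1.21 from D11 to D45 (edgeR adjusted p = 0.0477). The first was lost without D11 A (adjusted p = 0.139) or D11 B (adjusted p = 0.0903) and was -0.98 without D28 A and -2.84 without D28 B. The second was lost without D11 A, D11 B or D45 A (adjusted p = 0.274, 0.181 and 0.252). OTX1 changed by 1.31 from D11 to D28 (edgeR adjusted p = 0.00192), from a log2 difference of -0.38 to 0.92, and this was lost without D11 A (adjusted p = 0.0512). DBX1 changed by 2.96 from D11 to D45 (edgeR adjusted p = 0.00185), from -0.51 to 2.45, and by 1.60 without D45 B (adjusted p = 0.131). HOXA2 changed by -3.64 from D11 to D28 (edgeR adjusted p = 0.00926), on 17 and 8 UMIs in the SLC17A6-positive cells, and was lost without D11 A (adjusted p = 0.0999) or D11 B (adjusted p = 0.083).

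With STMN2, OTX1 changed by 1.04 from D11 to D28 (edgeR adjusted p = 0.021) and SIM1 by 1.04 (edgeR adjusted p = 0.00414). The OTX1 change was lost without D11 A (adjusted p = 0.121) or D11 B (adjusted p = 0.0903) and was 1.56 without D28 B. The SIM1 change was -0.01 in thinned cells and was lost without D28 B (0.82, adjusted p = 0.157). With FOXA2 no member passed for a change between days.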

How the results depend on the processing

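Of 210 alternative values of the member differences between days, 183 kept direction and side of the threshold, as did 659 of 770 for the partners and 146 of 192 for the flagged changes between days; 2 values with no adjusted p were left out. All causes below were not tested unless the setting itself states one.

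Replicate letters did not pair the libraries: deviations from the day means correlated at -0.32, 0.05 and -0.20 over 22192 genes. With the letter as a replicate block, SIM1 on D28 against D11 was -0.16, and genes called went from 5131 to 3314 on D28 against D11 and from 2086 to 628 on D45 against D28. It changed no member call otherwise. For D45 against D28, DESeq2 called 4353 and thinned cells 1273. SIM1 on D28 against D11 was -0.0029 with doublets removed and -0.061 with all barcodes. HOXA2 on D45 against D11 was -1.30 in thinned cells.

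In the partner fits the block is the library, since both sums come from 1 suspension. With no replicate block, 22 of the 37 member calls were lost, on D11 EMX2 (-3.21, adjusted p = 0.115), DBX1 (-2.43, 0.151) and SIM1 (-1.29, 0.473) with FOXA2 and SIM1 with WNT8B (1.27, 0.35) and STMN2 (2.28, 0.0657), and HOXA2 with FOXA2 on D28 was -0.037. HOXA2 with FOXA2 on D11 passed at 1.37 with no filter and at 1.67 with 2 or more FOXA2 UMIs, and on D45 it was 0.10 with doublets removed. With 2 or more WNT8B UMIs on D45, SIM1 was -0.31 and HOXA2 -7.19, and the D45 minus D11 change of HOXA2 was -3.17. In thinned cells, OTX1 with SLC17A6 on D45 was -0.19, EMX2 with STMN2 on D28 0.031, the EMX2 change with WNT8B from D11 to D28 0.30 and the SIM1 change with STMN2 -0.0095.

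Shares depend on depth. On D11 the mean share of member cells with WNT8B was, with 2 or more member UMIs, thinned to 1500 and thinned to 3000 UMIs, 84.7%, 29.4% and 44.0% for EMX2, 71.7%, 19.3% and 33.05% for OTX1 and 84.1%, 29.5% and 47.1% for DBX1. The share of all D11 cells with WNT8B also fell with depth. It was 19.6% and 10.4% in A and B unthinned, and 988 of 13303 and 660 of 15200 cells when thinned to 1500 UMIs. In the same order of settings, HOXA2 with FOXA2 gave 85.3%, 26.4% and 43.1%, and SIM1 with SLC17A6 48.2%, 21.3% and 29.3% (29.2% with doublets removed). The 26.4% for HOXA2 came from 27 cells, with an SD of 23.2 between the libraries. SIM1 with STMN2 gave 71.9% with 2 or more UMIs and 63.1% thinned to 3000. The highest cluster level was 124.6 CPM for EMX2 at resolution 1.2, in a cluster of 753 cells that shared 0.0% with the main one, and 84.5 CPM for OTX1 at 0.4. For SIM1 it was 344.9 CPM at resolution 0.4, 336.8 at 1.2, 210.4 with 15 components and 333.7 with doublets removed, and for HOXA2 4.87 CPM at 0.4, 4.70 with 15 components and 5.00 with doublets removed.

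Leaving out 1 library at a time gave, lowest to highest, on D28 against D11 -3.53 to -0.51 for EMX2, -3.44 to -1.84 for DBX1, -1.21 to 0.68 for SIM1 and -1.45 to -0.50 for HOXA2. On D45 against D11 the range was -2.69 to -1.22 for EMX2, -1.04 to -0.92 for SIM1 and -2.57 to -1.66 for HOXA2. On D45 against D28 it was -1.33 to 1.75 for EMX2, -3.66 to -1.90 for DBX1, -1.65 to 0.19 for SIM1 and -1.66 to -0.54 for HOXA2. Genes called ranged from 1112 to 10545, from 2804 to 12286 and from 0 to 10003 in the 3 comparisons; edgeR's 0 came without D45 A, where 3736 genes had an unadjusted p under 0.05. With FOXA2, HOXA2 ranged from 0.73 to 2.18 on D11, -1.18 to 1.31 on D28 and -6.63 to 0.57 on D45. With WNT8B it was -2.42 to 0.39 on D28, -6.64 to 0.77 on D45 and, for D45 minus D11, -3.68 to 4.10, and SIM1 on D45 -1.02 to 0.74. EMX2 with SLC17A6 ranged from -0.77 to 0.23 on D11 and -0.043 to 1.24 on D45. With STMN2 the range was -0.31 to 0.33 for EMX2 and -0.85 to 0.76 for DBX1 on D28, and on D45 -0.062 to 0.43 for OTX1, -1.08 to 0.30 for DBX1 and -0.93 to 0.0042 for HOXA2.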
